A study of Mus musculus with 8 samples.

Results

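The genes described here are the methionine cycle and DNA methylation enzymes of macrophages: *Mat2a*, *Mat2b*, *Ahcy*, *Ahcyl1*, *Mtap*, *Mtr*, *Mtrr*, *Dnmt1*, *Dnmt3a* and *Uhrf1*. They were chosen by symbol, and 10 of the 18635 genes in the deposited table carry these symbols. Expression was compared between bone marrow-derived macrophages (BMDMs) of 2 genotypes with 4 samples each: *Phgdh* fl/fl controls, and floxed cells that also carried Cre, written *Phgdh* fl/fl *Cx3cr1*-Cre. Both alleles of *Phgdh*, the gene of the first enzyme of serine synthesis, were floxed in both groups, and the controls carried no Cre. The authors give the *Cx3cr1* genotype as cre/+ in the Cre cells and +/+ in the controls. Cre expression, the *Cx3cr1* cre allele and loss of *Phgdh* therefore cannot be told apart. Cre was driven by the *Cx3cr1* promoter, which is active in many myeloid cells. All samples were kept for 24 h in tumor-conditioned medium of AE17, a mouse mesothelioma line, which made them tumor-educated macrophages (TEMs). The labels give no age of the mice and do not say which samples shared a mouse. The submitters call the 4 samples per group biological replicates.

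The methionine cycle makes S-adenosylmethionine (SAM), the methyl donor of nearly all cellular methyltransferases. Methionine adenosyltransferase makes SAM from methionine and ATP. Methyl transfer leaves S-adenosylhomocysteine, an inhibitor of methyltransferases, which is hydrolysed to homocysteine, and methionine synthase then rebuilds methionine with a methyl group from folate. Serine, the product of the pathway that PHGDH opens, is a source of that folate-bound carbon. DNA methylation is one of the uses of SAM: maintenance methylation copies CpG marks onto the new strand behind the replication fork, and de novo methylation sets new marks. Macrophages grown from bone marrow can still divide in culture, so genes of maintenance methylation are read beside genes of DNA replication.

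With Cre, 4 of the 10 genes were higher (*Dnmt3a*, *Ahcyl1*, *Mtr* and *Dnmt1*), 3 were lower (*Uhrf1*, *Mat2a* and *Mtap*) and 3 did not pass the test (*Mat2b*, *Mtrr* and *Ahcy*). A gene passed at an adjusted p under 0.05 in limma, fitted on log2(normalized count + 1) across 13629 genes. At this threshold 41.0% of all tested genes passed, 20.8% as higher and 20.3% as lower. Thus 7 of 10 passing, with 4 up and 3 down, is set against a transcriptome in which such calls were common, and nothing particular to these genes follows from the count. In 6 of the 10 genes the 4 samples of one genotype lay wholly above or below the other 4, as in 36.7% of all tested genes. The median absolute log2 fold change of the 10 genes was 0.16, against 0.12 over all tested genes. At the 2 ends of the range, *Uhrf1* fell by 26.3% and *Dnmt3a* rose by 18.0%.

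**Figure D1:**
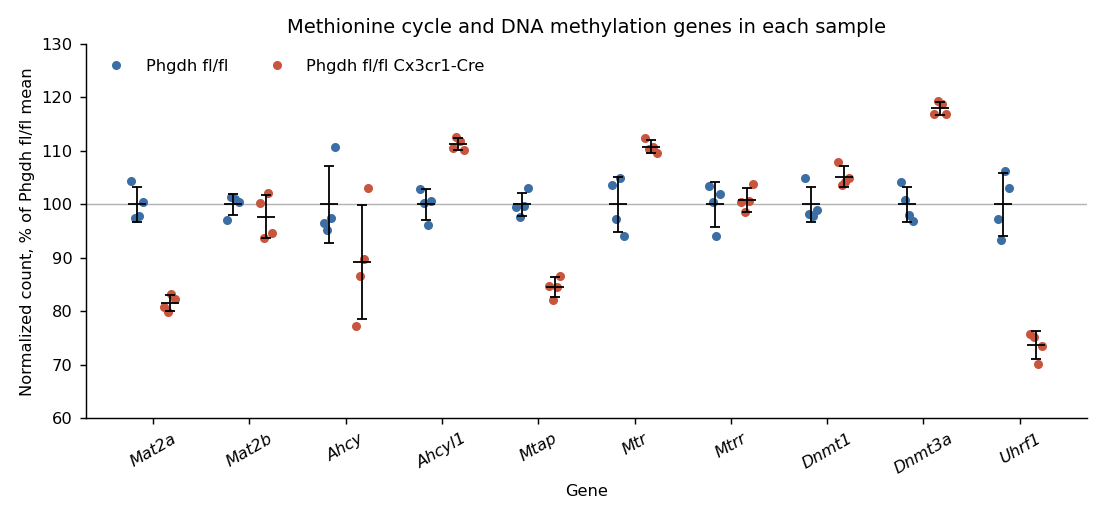
Normalized count of each gene in each sample, as a percentage of the *Phgdh* fl/fl mean (vertical axis, starting at 60%); blue points are *Phgdh* fl/fl and red points *Phgdh* fl/fl *Cx3cr1*-Cre samples, and black bars give the mean and SD (n = 4). *Mat2a*, *Mtap* and *Uhrf1* lie below the controls in every Cre sample, *Ahcyl1*, *Mtr* and *Dnmt3a* lie above them, and the groups overlap for *Mat2b*, *Ahcy*, *Mtrr* and *Dnmt1*.

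The libraries held 38219563 to 47027420 reads in genes, and values are reads divided by a size factor of 0.8888 to 1.0865 for each library. The targeted gene *Phgdh* had 119.0, 128.9, 116.8 and 104.9 normalized counts in *Phgdh* fl/fl TEMs and 32.6, 35.3, 14.2 and 26.3 in *Phgdh* fl/fl *Cx3cr1*-Cre TEMs, so every library matched its label. All 10 listed macrophage markers were present and summed to between 1108000 and 1206000 normalized counts in every sample, most of it *Lyz2*. Of these markers 5 were lower with Cre, namely *Fcgr1* (log2 fold change -0.40), *Cd14* (-0.32), *Spi1* (-0.21), *Itgam* (-0.19) and *Adgre1* (-0.08), 1 was higher, *Cybb* (0.30), and 4 did not pass, *Lyz2* and *Csf1r* among them. Of 29 listed markers of T cells, B cells, neutrophils, dendritic cells and stromal or epithelial cells, 20 had no row in the table used here, whose genes all hold at least 10 reads over the 8 samples; among them were *Cd3e*, *Ly6g* and *Epcam*. The B cell list summed to 197 to 253 in controls and 131 to 167 with Cre, all but a few counts from *Cd79b*, and the neutrophil list, only *S100a8*, to 467 to 575 and 576 to 631. The part of all these markers in the results below was not tested. On the second principal component (13.2% of the variance), replicates 1 and 4 separated from 2 and 3 in both genotypes, and no label names a batch. Within each of these 2 subsets the log2 difference of 9 of the 10 genes had the sign reported below; *Mtrr* had -0.01 and 0.03. In such bulk samples, fewer cells of one kind and less RNA per cell cannot be told apart.

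The sequences that matter for 3 of these genes are shown first, because background on *Mat2a* turns on letters in its mRNA and background on *Dnmt1* and *Uhrf1* on letters in their promoters. MAT2A mRNA is known for hairpins in its 3′ UTR that carry a 9-letter sequence methylated by METTL16, a SAM-dependent RNA methyltransferase, and through them splicing and stability of the mRNA follow the SAM supply. The letters TACAGAGAA were searched in the longest transcript of each protein-coding gene in GENCODE M21 (sense strand, build GRCm38). *Mat2a*, at chromosome 6: 72432799-72439558 on the minus strand, held 5 matches, all in the 3′ UTR of Mat2a-201, and the other 9 genes held none. Of 21901 protein-coding genes, 912 (4.16%) held at least 1 match, 44 at least 2, 3 at least 3, and *Mat2a* was the only one with 4 or more. A match is a description of the letters and was not tested as a site. The 5 matches with 10 bases on either side read 5′ to 3′ on the mRNA strand as follows, with the match in capitals:
Mat2a match 1, chr6:72434235-72434263: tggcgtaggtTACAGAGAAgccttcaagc
Mat2a match 2, chr6:72433451-72433479: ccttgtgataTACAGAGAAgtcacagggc
Mat2a match 3, chr6:72433272-72433300: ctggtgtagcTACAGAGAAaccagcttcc
Mat2a match 4, chr6:72433157-72433185: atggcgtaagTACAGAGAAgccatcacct
Mat2a match 5, chr6:72432938-72432966: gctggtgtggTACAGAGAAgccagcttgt

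E2F factors switch on genes of S phase, and both maintenance genes are known in that set. RefSeq promoter windows (250 bases before to 50 after a start, GRCm38.p6) were found for all 10 genes, 18 windows in all, and were searched on both strands for the E2F letters TTTGGCGC, TTTGCCGC, TTTCGCGC and TTTCCCGC. No match overlapped a match of the other letters searched. The letters stood in 1 window of *Dnmt1* (2 matches, at -219 and 34 from its start site 3) and 1 window of *Uhrf1* (at -185 from its start site 2), and in no window of the other 8 genes. Over all 32851 promoters searched, 2.26% held them. Each of these E2F words holds a CG. The matching windows of *Dnmt1* and *Uhrf1* each had 33 CpGs, against a median of 7 over all promoters. The share among promoters equally rich in CpG was not computed. The E-box CACGTG, found in 7.15% of promoters, stood in 1 window, that of start site 3 of *Dnmt3a*. The letters TGATGNAA of ATF4 and C/EBP composite sites, found in 3.97% of promoters, stood in none of the 18, which says only that these letters are not in these windows. The 3 E2F matches, in capitals with up to 10 bases on either side, read 5′ to 3′ in the direction of the gene:
Dnmt1 at -219, chr9:20952825-20952852, minus strand: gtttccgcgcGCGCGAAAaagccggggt
Dnmt1 at 34, chr9:20952574-20952600, minus strand: cggggcagcgTTTGGCGCgggctgtgc
Uhrf1 at -185, chr17:56304118-56304145, plus strand: ccgagtcgggTTTCGCGCgcccaggcgt

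Levels were compared between genes only per length, as fragments per kilobase of exon, scaled to library size (FPKM) recomputed from the reads. *Mat2a* was the most abundant in *Phgdh* fl/fl TEMs at 32.2 ± 1.07 FPKM (SD, n = 4), followed by *Ahcyl1* at 27.2 ± 0.814 and *Dnmt1* at 23.5 ± 0.808. *Mat2b* (15.2 ± 0.290), *Mtap* (12.1 ± 0.259), *Dnmt3a* (7.83 ± 0.262), *Mtr* (6.57 ± 0.336), *Uhrf1* (5.10 ± 0.288), *Mtrr* (4.15 ± 0.178) and *Ahcy* (2.34 ± 0.168) followed in that order. The place of *Ahcy* is uncertain, since 74.4% of the 75-base windows of its transcript also occur in near-identical copies. No neighbouring pair in this order overlapped over its 4 samples in either genotype. The order itself changed at 2 places in *Phgdh* fl/fl *Cx3cr1*-Cre TEMs: *Ahcyl1* (30.6 ± 0.372) stood above *Mat2a* (26.6 ± 0.491), and *Mtrr* (4.23 ± 0.0875) stood above *Uhrf1* (3.80 ± 0.130). The length used was that of all annotated exons joined. It was 6690 bases for *Ahcyl1* and 4486 for *Mat2a*, whose longest protein-coding transcripts have 3863 and 3387. The order and the level ratios between genes depend on this choice, and no other length was tried.

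**Figure D2:**
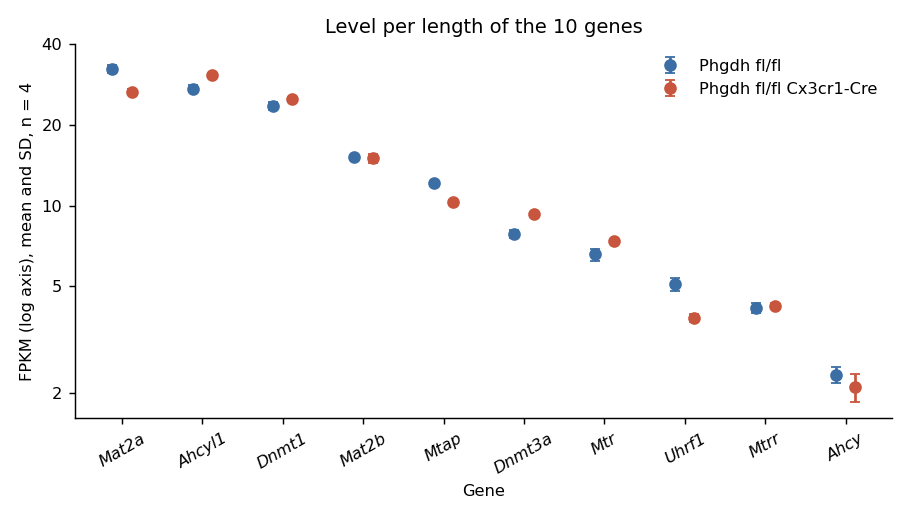
Level per length of the 10 genes in FPKM (log axis), as mean and SD over 4 samples of *Phgdh* fl/fl (blue) and 4 of *Phgdh* fl/fl *Cx3cr1*-Cre TEMs (red), ordered by the mean over all samples. *Ahcyl1* passes *Mat2a* and *Mtrr* passes *Uhrf1* in the Cre samples. Lengths are of all annotated exons joined, and the order depends on that choice.

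SAM synthesis was described by the catalytic subunit MAT2A and its regulatory subunit MAT2B. *Mat2a* (ENSMUSG00000053907) had 6541, 6102, 6128 and 6290 normalized counts in *Phgdh* fl/fl TEMs and 5063, 5010, 5219 and 5157 in *Phgdh* fl/fl *Cx3cr1*-Cre TEMs. Every Cre sample was below every control sample. *Mat2a* fell by 18.4% (log2 fold change -0.29, standard error 0.026, 95% interval -0.35 to -0.24, limma adjusted p = 1.52e-08). The exact permutation test over the 70 labelings gave p = 0.0286, the smallest that 4 against 4 samples allow. *Mat2b* (ENSMUSG00000042032, chromosome 11: 40679314-40695203) had 3198, 3343, 3329 and 3307 in controls and 3300, 3091, 3365 and 3121 with Cre. Its groups overlapped, and the log2 difference of -0.03 (95% interval -0.10 to 0.03, adjusted p = 0.400) did not pass.

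The change of *Mat2a* differed from that of *Mat2b* by -0.26 on the log2 scale (exact permutation p = 0.0286, 0.0400 after Benjamini-Hochberg adjustment over the 7 pairs of genes compared; interval of shifts not rejected -0.41 to -0.14). Per length, the ratio of *Mat2a* to *Mat2b* was 2.12 ± 0.112 in *Phgdh* fl/fl and 1.77 ± 0.0627 in the Cre samples, with no overlap. *Mat1a*, the liver form of the catalytic subunit, had no row in the table used here. The RNA methyltransferase *Mettl16*, whose target the *Mat2a* hairpins are, was also lower: it had 972.4, 982.1, 1017.2 and 987.4 normalized counts in controls against 881.0, 926.0, 882.4 and 852.9 with Cre (log2 fold change -0.16, adjusted p = 0.00285). The groups did not overlap. *Mat2a* shares 508 exonic bases with *Particl*, a transcript of the opposite strand at 52.5 to 74.8 normalized counts. Of the 75-base windows of *Mat2a*, 6.0% are shared with close copies, among which *Particl* itself is counted.

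S-adenosylhomocysteine is split by the hydrolase AHCY. *Ahcy* did not pass the test, and *Ahcyl1* rose. AHCYL1 is a related protein without known hydrolase activity that binds the inositol trisphosphate receptor and is also called IRBIT. *Ahcy* (ENSMUSG00000027597, chromosome 2: 155059310-155074497) had 274.3, 270.6, 277.0 and 314.8 normalized counts in controls and 219.4, 246.3, 255.2 and 292.7 with Cre. The groups overlapped through the highest Cre sample, replicate 4. The log2 difference was -0.17 (95% interval -0.35 to 0.01, adjusted p = 0.117), and without that sample it was -0.24 with an adjusted p of 0.0319. The count of *Ahcy* is uncertain: 74.4% of the 75-base windows of its transcript also occur in near-identical copies, among them *Gm4737* (99.7% identical over 2083 bases), and how the counting treated reads that match several places is not given in the sources used here.

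*Ahcyl1* (ENSMUSG00000027893, chromosome 3: 107663118-107696560) had 8129, 7927, 7589 and 7947 normalized counts in controls and 8737, 8889, 8828 and 8697 with Cre. All Cre samples were above all controls. *Ahcyl1* rose by 11.3% (log2 fold change 0.15, standard error 0.024, adjusted p = 2.30e-05). It lies 9.32 Mb from *Phgdh* on the same chromosome. The changes of *Ahcy* and *Ahcyl1* differed by -0.32 (exact permutation p = 0.0286, adjusted 0.0400, interval -0.66 to -0.004). With a trend on gene length and GC content taken off, the change of *Ahcyl1* was 0.10, and this difference was not tested in that setting. *Ahcyl2*, the other relative, had a log2 difference of 0.05 (95% interval -0.002 to 0.10, adjusted p = 0.117), which turned to -0.10 (adjusted p = 0.00162) once a trend on gene length and GC content was taken off.

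Methionine is rebuilt from homocysteine by methionine synthase (MTR) and its reactivating partner MTRR, and from methylthioadenosine, the by-product of polyamine synthesis, by the salvage pathway that MTAP opens. *Mtr* (ENSMUSG00000021311, chromosome 13: 12182712-12258113) had 2513, 2362, 2546 and 2284 normalized counts in controls and 2730, 2679, 2686 and 2659 with Cre. Its groups did not overlap, and *Mtr* rose by 10.8% (log2 fold change 0.15, standard error 0.033, adjusted p = 0.00106). With the trend on length and GC content taken off, the log2 difference was 0.07 and did not pass (adjusted p = 0.0918). *Mtrr* (ENSMUSG00000034617, chromosome 13: 68560780-68582149) had 968.7, 940.6, 879.7 and 953.1 in controls and 939.5, 921.8, 941.4 and 971.6 with Cre. These overlapped, with a log2 difference of 0.01 (95% interval -0.07 to 0.10, adjusted p = 0.835). The difference between the changes of *Mtr* and *Mtrr* was 0.14 with an interval of -0.08 to 0.28 (exact permutation p = 0.0857, adjusted 0.10), so unequal change of the pair was not shown.

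*Mtap* (ENSMUSG00000062937, chromosome 4: 89137122-89181081) had 1678, 1648, 1681 and 1738 normalized counts in controls and 1430, 1384, 1425 and 1462 with Cre. The lowest control exceeded the highest Cre sample. *Mtap* fell by 15.5% (log2 fold change -0.24, standard error 0.033, adjusted p = 4.99e-06). Its substrate comes from spermidine and spermine synthases, and both of these genes were lower too. *Srm*, spermidine synthase, had 623.8, 591.8, 540.6 and 627.8 in controls and 483.8, 462.5, 449.3 and 465.9 with Cre (log2 fold change -0.35, adjusted p = 2.92e-05). *Sms*, spermine synthase, went from 1771 ± 60.6 to 1459 ± 56.2 (SD, n = 4 each; log2 fold change -0.28, adjusted p = 2.62e-06). Neither gene's groups overlapped.

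In the list of polyamine and salvage genes, 5 of 10 were lower and 1 higher, with a median log2 fold change of -0.07 against -0.0018 over all tested genes. The lower count was 3 without control replicate 4. Besides *Srm* and *Sms* these were *Smox* (-0.12), *Enoph1* (-0.17) and *Amd1* (-0.09), the decarboxylase that diverts SAM to polyamines. The call of *Amd1* was at the threshold (adjusted p = 0.0419) and was lost in 10 of 18 other settings. *Sat1*, which acetylates polyamines for export and breakdown, rose from 14813 ± 375 to 17512 ± 445 (log2 fold change 0.24, adjusted p = 7.09e-08). Of the salvage enzymes downstream of *Mtap*, *Enoph1* was lower (adjusted p = 0.0186) with overlapping groups, and its call was lost without trended variances (0.0646) and without control replicate 2 or 4 or Cre replicate 4 (0.0622 to 0.0820). *Mri1* (0.01, adjusted p = 0.947), *Apip* (-0.06, 0.477) and *Adi1* (0.10, 0.0602) did not pass.

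The other methionine cycle and cobalamin supply genes were also mixed. Of 12 tested genes in that list 3 were higher, 4 lower and 5 not called, with a median log2 fold change of 0.02. Among all tested genes 20.8% were higher and 20.3% lower. The lower count was 2 without control replicate 3 or Cre replicate 1. *Tcn2*, the secreted cobalamin carrier, was higher (0.18, adjusted p = 4.87e-06), and *Cd320*, the receptor for that carrier's complex, was lower (-0.32, adjusted p = 0.00511). *Mmachc*, which processes cobalamin inside the cell, was lower (-0.26, adjusted p = 0.00983), as was *Slc25a26*, the mitochondrial SAM carrier (-0.21, adjusted p = 0.0188). The call of *Slc25a26* was lost without trended variances (0.0585), without control replicate 3 (0.0837) and without Cre replicate 1 (0.0683). *Mmadhc*, another cobalamin-processing gene (-0.09, adjusted p = 0.0298), lost its call in 9 of the 18 other settings. The alternative route to methionine through *Bhmt* and *Bhmt2*, known from liver and kidney, was not measured by any row used here.

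Homocysteine can also leave the cycle by transsulfuration. The list for this route also holds genes of later sulfur metabolism, and *Cth* is its only tested gene of transsulfuration itself. Of the 6 tested genes, 3 were higher and 0 lower in limma at the adjusted threshold. Among all tested genes 20.8% were higher and 20.3% lower. Likewise 0 were lower at an unadjusted p under 0.05, in edgeR or in DESeq2. The higher count was 1 without trended variances and without control replicate 2 or Cre replicate 1. *Cth*, cystathionine gamma-lyase, had 22.3, 9.2, 17.6 and 22.9 normalized counts in controls and 46.1, 29.1, 17.3 and 49.6 with Cre. The groups overlapped through the third Cre sample, and the call (log2 fold change 0.91, adjusted p = 0.0264) was lost without trended variances (0.118) and without control replicate 2, Cre replicate 1 or Cre replicate 4 (0.101 to 0.114). *Cbs*, the first enzyme of the route, had no row in the table used here. *Suox*, sulfite oxidase, was higher without overlap (0.30, adjusted p = 0.000836). *Mpst*, a sulfurtransferase (0.14, adjusted p = 0.0354), had overlapping groups and lost its call without trended variances (0.131) and without control replicate 1 or 2 or Cre replicate 1 or 2 (0.0821 to 0.147).

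Among the DNA methylation enzymes, the de novo enzyme gene *Dnmt3a* had the clearest increase. *Dnmt3a* (ENSMUSG00000020661, chromosome 12: 3806007-3914443) had 5882, 5690, 5541 and 5476 normalized counts in controls and 6602, 6734, 6705 and 6606 with Cre. All 4 Cre samples were higher than all controls. *Dnmt3a* rose by 18.0% (log2 fold change 0.24, standard error 0.025, 95% interval 0.19 to 0.29, adjusted p = 1.72e-07). It has the longest exon sequence of the 10 genes, 16642 bases, and with the trend on length and GC content taken off the change was 0.11 (adjusted p = 0.00022). An antisense gene, *Dnmt3aos*, overlaps 133 of its exonic bases.

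*Dnmt1*, the maintenance enzyme, hardly differed. *Dnmt1* (ENSMUSG00000004099, chromosome 9: 20907209-20959888) had 7896, 7395, 7363 and 7449 normalized counts in controls and 8124, 7804, 7838 and 7901 with Cre. Control replicate 1 lay within the Cre range, the other 3 controls below it. The log2 fold change was 0.07 (standard error 0.026, 95% interval 0.02 to 0.13, adjusted p = 0.0258). That call was lost without trended variances (0.0966), with the length and GC trend taken off (0.03, adjusted p = 0.406), and without control replicate 2, 3 or 4 or Cre replicate 1 or 4 (adjusted p 0.0505 to 0.0916), while without control replicate 1 the adjusted p was 0.00101. The exact permutation test gave p = 0.0857. The small rise of *Dnmt1* thus rests on the choice of setting.

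*Uhrf1* recognizes hemimethylated CpGs and brings DNMT1 to them. *Uhrf1* (ENSMUSG00000001228, chromosome 17: 56303321-56323486) had 914.8, 879.0, 1000.6 and 970.3 normalized counts in controls and 713.3, 708.8, 659.8 and 692.5 with Cre. The groups were well apart. *Uhrf1* fell by 26.3% (log2 fold change -0.44, standard error 0.048, 95% interval -0.54 to -0.34, adjusted p = 2.42e-07), the largest change of the 10 genes, and its value was again -0.44 with the length and GC trend taken off. A processed pseudogene, *Gm5648*, shares 11.3% of its 75-base windows and had at most 3.68 normalized counts.

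The enzyme and its recruiter therefore moved apart. The change of *Uhrf1* differed from that of *Dnmt1* by -0.51 on the log2 scale (exact permutation p = 0.0286, adjusted 0.0400, interval -0.69 to -0.35). Per length, *Dnmt1* exceeded *Uhrf1* by 4.63 ± 0.347 times in *Phgdh* fl/fl and by 6.59 ± 0.206 times in the Cre samples, with no overlap. *Dnmt1* and *Dnmt3a* differed from each other as well, by -0.17 (exact permutation p = 0.0286, adjusted 0.0400, interval -0.23 to -0.08), and the ratio of *Dnmt1* to *Dnmt3a* per length was 3.01 ± 0.0577 against 2.68 ± 0.0722. With the length and GC trend taken off, the changes of *Dnmt1* and *Dnmt3a* were 0.03 and 0.11. Their difference was not tested in that setting. *Dnmt3b*, the second de novo enzyme, was near its limit of detection, with 12.1 to 33.1 normalized counts in controls and 15.8 to 30.1 with Cre (log2 difference 0.07, 95% interval -0.53 to 0.66, adjusted p = 0.881).

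The change of *Uhrf1* lay close to that of the replicative helicase, and the change of *Dnmt1* did not. *Mcm2* to *Mcm7*, the 6 subunits of the MCM helicase, all fell without overlap, by log2 fold changes of -0.37 (*Mcm7*) to -0.49 (*Mcm5*). The change of *Uhrf1* differed from the mean of these 6 by -0.02 with an interval of -0.15 to 0.10 (exact permutation p = 0.543), whereas *Dnmt1* differed from it by 0.49 (interval 0.39 to 0.58, exact permutation p = 0.0286, adjusted 0.0400). Of 14 other S phase genes listed, 11 were lower and 0 higher in limma (0 higher at an unadjusted p under 0.05, in edgeR or in DESeq2), with *Cdc6*, the licensing factor, at -0.48 (adjusted p = 1.50e-05) and *Gins2*, a helicase cofactor, at -0.37 (adjusted p = 7.85e-06). The other 3, *Chaf1b* (-0.05), *E2f2* (-0.04) and *Ccne1* (0.02), were not called, so not every S phase gene listed fell. The median log2 fold change of these 14 was -0.19. Among all tested genes 20.3% were lower and 20.8% higher.

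Among 13 other genes of DNA methyltransferases and their partners, 4 were lower, 2 higher and 7 not called, against 20.3% lower and 20.8% higher over all tested genes. *Pcna*, the sliding clamp that tethers DNMT1 at the fork, had 16561, 16934, 17553 and 16980 normalized counts in controls and 12918, 13185, 13675 and 12876 with Cre (log2 fold change -0.37, adjusted p = 1.42e-10). *Cdca7*, the partner that activates the remodeller HELLS at hemimethylated DNA, had 493.7, 457.4, 463.1 and 425.5 against 335.3, 330.5, 341.6 and 375.4 (-0.41, adjusted p = 2.13e-05). In both genes every Cre sample was lower. *Hells* itself (-0.21, adjusted p = 0.000502) and *Lig1*, the ligase of lagging strands and a methylated partner of UHRF1 (-0.29, adjusted p = 1.32e-06), were also lower without overlap.

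The 2 that were higher were *Dppa3* and *Uhrf2*. *Dppa3*, also called Stella, is known from oocytes as a protein that binds UHRF1 and keeps it from chromatin. It had 61.4, 70, 71.3 and 63.9 normalized counts in controls and 131.6, 129.9, 121.0 and 116.7 with Cre. The lowest Cre sample was well above the highest control, and the log2 fold change of 0.90 (standard error 0.12, 95% interval 0.66 to 1.14, adjusted p = 2.27e-06) was the largest in either direction in this list. It kept its call in all 18 other settings. The level was low, 3.26 ± 0.186 FPKM with Cre against 1.72 ± 0.122 in controls, and 4.1% of its 75-base windows occur in copies. *Uhrf2*, the paralog of *Uhrf1*, rose slightly (0.12, adjusted p = 0.000232), which was lost with the length and GC trend taken off (0.05, adjusted p = 0.0957). Per length, *Uhrf2* exceeded *Uhrf1* by 3.64 ± 0.275 times in controls and by 5.37 ± 0.227 times with Cre.

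**Figure D3:**
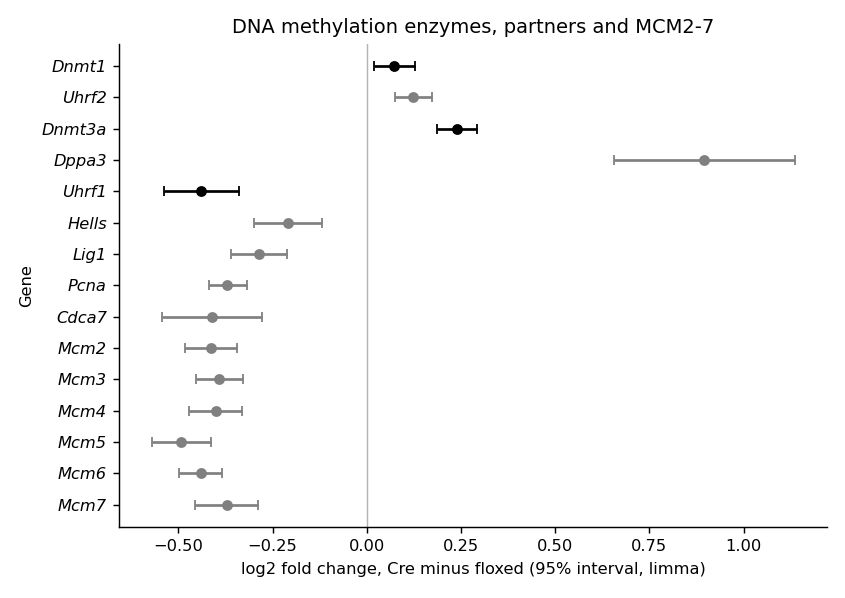
Log2 fold change with its 95% interval (horizontal axis, limma, 4 against 4 samples) for *Dnmt1*, *Dnmt3a* and *Uhrf1* (black) and for partner genes and *Mcm2* to *Mcm7* (grey). *Uhrf1*, at -0.44, stands among *Mcm2* to *Mcm7* (-0.49 to -0.37), while *Dnmt1* stands at 0.07 and *Dppa3* at 0.90.

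Readers and erasers of the mark were examined in the same way, against 20.8% higher and 20.3% lower among all tested genes. Of 10 methyl-CpG binding genes, 5 were higher and 1 lower, with *Zbtb38* at 0.38 (adjusted p = 3.17e-08) and *Mbd3* at -0.20 (adjusted p = 4.59e-05). With the length and GC trend taken off, 3 were higher and 2 lower. Of 12 tested genes of TET enzymes and DNA demethylation, 6 were higher and 1 lower, and 4 were higher and 2 lower with the trend taken off. In the main fit the higher ones were *Tet2*, *Gadd45a*, *Gadd45b*, *Gadd45g*, *Neil2* and *Neil3*, and the lower one was *Tet3*. Of these, only *Tet2* and *Tet3* encode TET enzymes. The TET genes encode dioxygenases that oxidize methylcytosine with 2-oxoglutarate as a substrate. In the main fit *Tet2* and *Tet3* were called in opposite directions. *Tet2* was higher (0.16, adjusted p = 0.00157), and with the trend taken off it was at 0.01 and not called. *Tet3* was lower (-0.13, adjusted p = 0.00441, and -0.26 with the trend taken off), and its call was lost without trended variances (adjusted p = 0.0585). For both, the groups overlapped. *Gadd45a*, linked to DNA repair and stress, rose from 1074 ± 37.5 to 1493 ± 48.3 (0.48, adjusted p = 2.75e-09).

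Other users of SAM were counted by class, against 20.8% higher and 20.3% lower among all tested genes, and differences between the classes were not tested. Of 34 histone lysine methyltransferase genes, 15 were higher and 6 lower (9 and 9 with the length and GC trend taken off), led by *Kmt2a* (0.47, adjusted p = 3.49e-08), which methylates lysine 4 of histone H3, and by *Smyd3* (0.41) and *Setd7* (0.39). Among those called, *Smyd5* (-0.33) and *Nsd2* (-0.23) were the lowest. Of 10 protein arginine methyltransferase genes and partners, 6 were lower and 0 higher in limma (0 higher at an unadjusted p under 0.05, in edgeR or in DESeq2), among them *Prmt1*, the main enzyme of asymmetric dimethylation (-0.28, adjusted p = 1.26e-06), *Prmt3* (-0.33), *Prmt7* (-0.33) and *Wdr77*, the cofactor of PRMT5 (-0.33). Among 16 tested small-molecule and protein-repair methyltransferases, 5 were higher and 3 lower, with *Mettl7a1* at 0.35 and *Gamt*, the enzyme of creatine synthesis, at -0.37 (adjusted p = 1.63e-05). Of 18 genes that write, erase or read RNA m6A, 5 were higher and 4 lower. With the trend taken off 3 were higher and 7 lower. The highest were *Ythdc2* (0.33, adjusted p = 1.42e-05), *Rbm15* (0.23) and *Alkbh5* (0.21), each without overlap of the groups and called in all 18 other settings. *Mettl16* (-0.16) was the lowest. The calls of *Mettl3* (-0.13) and *Wtap* (-0.07) were lost in 12 and 9 of the 18 other settings.

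Gene length went with direction across the transcriptome and in the 10 genes. Tested genes were ranked by exon length and cut into 4 bins of equal size. In the bin of longest genes (6411 bases or more) 38.8% were higher and 13.7% lower, while in the bin of shortest genes (up to 2391 bases) 8.78% were higher and 22.3% lower. The 4 higher genes of the 10 are the 4 longest, at 6690 (*Ahcyl1*), 7377 (*Dnmt1*), 8524 (*Mtr*) and 16642 bases (*Dnmt3a*), and the 3 lower ones measure 3226 (*Mtap*), 4259 (*Uhrf1*) and 4486 bases (*Mat2a*). With a smooth trend on length and GC content taken off each sample, an analysis added after the data were seen, 5 of the 10 passed: *Mat2a* (-0.33), *Mtap* (-0.25) and *Uhrf1* (-0.44) stayed lower, and *Ahcyl1* (0.10) and *Dnmt3a* (0.11) stayed higher at smaller values. *Dnmt1* (0.03) and *Mtr* (0.07) no longer passed. Among the histone lysine methyltransferases, the 15 higher genes had a median exon length of 10813 bases and the 6 lower ones of 5288. What links length to direction in these libraries was not tested.

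**Figure D4:**
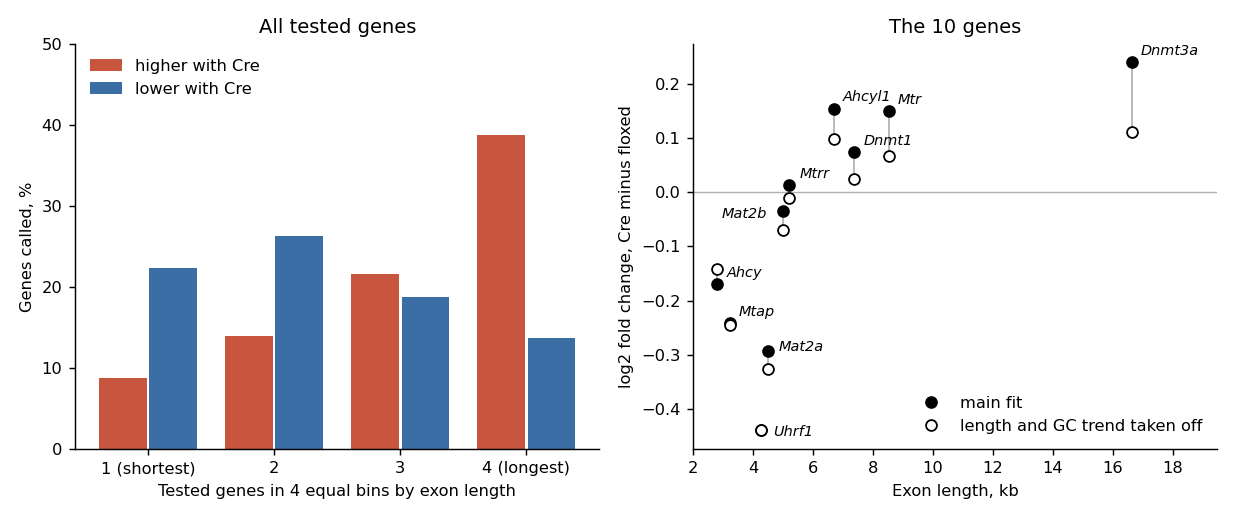
Left, share of all tested genes called higher (red) or lower (blue) in each of 4 equal bins by exon length, in percent. Right, log2 fold change of the 10 genes against exon length in kb, in the main fit (filled) and with the length and GC trend taken off (open): the 4 longest genes are higher in the main fit and closer to 0 without the trend, whereas *Uhrf1*, *Mtap* and *Mat2a* hardly move.

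The genes whose sample-to-sample variation was most like that of 3 members were sought among 10507 genes with a mean of at least 100 normalized counts, by Pearson's r over 8 samples after each genotype's mean had been taken off. For *Mat2a* they included *Gm42793* (r = 0.985) and *5031439G07Rik* (0.971). For *Ahcy* they were *Cdk2ap1* (0.978), *Galns* (0.962) and *Mfsd9* (0.957), and for *Dnmt1* *Nup155* (0.984), *Fam193a* (0.984) and *Cul9* (0.982). With 8 samples and so many genes searched, values this high are only a description.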

How the data were processed

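The 8 RNA-seq samples, 4 per genotype, were grouped by the genotype in their titles. Libraries were made with a kit that keeps the strand. The submitters' processing notes name TopHat2, HTSeq 0.6, DESeq2 and the build mm10, and the strand setting of the counting is not given in the sources used here. The deposited signal per gene and sample is labelled FPKM by the authors, but every one of the 144353 values above 0 was a whole read number (within 0.1 reads) divided by 1 size factor per library, so the values are normalized counts. Deposited columns with the authors' own log2 fold changes, standard errors, statistics and p-values were not used. There was 1 column of normalized counts for each sample and 0 columns of other samples.

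Genes with a mean of at least 10 normalized counts were fitted with limma 3.58.1 in R 4.3.3 on log2(normalized count + 1) with trended variances and Benjamini-Hochberg adjustment, since the deposited unit is not a raw count. Fold changes of low genes are understated on this scale. As alternatives, edgeR 4.0.16 (quasi-likelihood, TMM) and DESeq2 1.42.0 were run on the recovered reads, along with other pseudocounts, filters and scalings, a replicate block, a length and GC correction and each sample left out in turn. Differences between the changes of gene pairs were tested by exact two-sided permutation over 70 labelings, and their intervals hold the shifts that this test did not reject at 0.05. Scripts were tested on simulated data. FPKM were recomputed from recovered reads and the GENCODE M21 exon union. Positions are of GRCm38, the build of mm10, from GENCODE M21.

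The 10 genes and all lists were chosen with earlier results of these data known. Genes named are these 10, *Phgdh*, *Cx3cr1*, *Mcm2* to *Mcm7*, fixed role genes of each pathway, the called genes with the 4 lowest and 4 highest fold changes of each list, and the 3 genes most like *Mat2a*, *Ahcy* and *Dnmt1*. A few genes that this rule names are not reported here. *Cx3cr1*, whose promoter drives Cre, fell from 1075 ± 94.2 to 660 ± 32.2 normalized counts (limma adjusted p = 1.87e-09). The groups also differ in *Cx3cr1* genotype, and the part of that genotype in the fall was not tested. Replicate numbers were not taken as pairs, although replicates 1 and 4 separated from 2 and 3 in both genotypes on the second principal component. P-values measure the spread between the samples of a group, and the number of animals behind them is not given in the labels.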

Additional observations from a re-analysis of the deposited data

Results flagged for a closer look

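In 87 named genes, each genotype's 4 samples were examined for 1 value far from the other 3, and 6 of 174 groups were picked out, where chance alone picks about 1 in 20. Control replicate 4 had 314.8 normalized counts of *Ahcy*, with the next highest control at 277.0. Control replicate 1 had the highest values of *Dnmt1* (7895.6 against 7449.2 in the next), *Ahcyl2* (4640.0 against 4496.6), *Nsd2* (6391.4 against 5708.3) and *Kmt2a* (3367.2 against 2842.7). For *Dnmt1* this is the sample through which the groups overlap. The sixth was *Smyd5*, whose lowest Cre sample, replicate 1, had 818.0 against 859.7 in the next.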

How the results depend on the processing

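Across 18 alternative settings the number of genes called ranged from 4930 to 5944 (5594 in the main fit), and edgeR called 5608 and DESeq2 5066. Of the 10 genes, 5 to 7 were called, with 3 or 4 lower and 2 to 4 higher; the 2 higher came from taking off the length and GC trend, chosen after seeing the data. *Mat2a*, *Mtap*, *Uhrf1*, *Ahcyl1* and *Dnmt3a* kept their direction and call in all 18. The sign of *Mtrr* turned with the trend taken off (-0.01), and leaving out single samples gave -0.016 (control replicate 3), -0.001 (Cre replicate 4) and otherwise up to 0.03. *Ahcyl2* turned to -0.10 with the trend taken off. *Dnmt3b* ranged from -0.209 (without control replicate 1) to 0.252 (without control replicate 2), with -0.056 without Cre replicate 4. *Mri1* ranged from -0.055 (without control replicate 3) to 0.042 (without control replicate 4), with -0.009 and -0.006 without Cre replicate 1 or 3. Neither was called. The cause was not tested. The 171 pathway list genes gave 81 to 99 calls. Same-numbered samples correlated at -0.11, 0.19, 0.22 and -0.09, and the best match was the own number for replicates 2 and 3 only. The numbers were therefore not taken as pairs. With the replicate block 5597 genes were called, and 7 of the 10. With the block, the pair differences kept their sign, and the sign-flip test cannot go below 0.125. The differences between gene pairs were not computed with the length and GC trend taken off. With 4 samples a group, exact tests cannot go below 0.0286.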
